A study of Saccharomyces cerevisiae BY4741 with 66 samples.

Results

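The cytosolic ribosomal protein genes of Saccharomyces cerevisiae were taken as all nuclear genes whose symbol begins with RPL or RPS followed by a digit, plus the stalk genes RPP0, RPP1A, RPP1B, RPP2A and RPP2B. They came to 137 of the 6577 nuclear features in the deposited tables, 81 for the large and 56 for the small subunit. Of these, 118 formed 59 pairs of A and B copies and 19 had no second copy. The symbol RPP1 also fits the letters of the rule but belongs to an RNase P subunit, and at a median of 39.1 scaled RPM (footprint reads relative to the size of the library) in rich-medium totals, beside 1458 for the median ribosomal protein gene, it was left out.

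Ribosomal proteins are the protein part of the cytosolic ribosome, in which the small subunit decodes the mRNA and the large subunit forms the peptide bond. In yeast most of them are encoded by a pair of genes left from a genome duplication, often with an intron in each copy, and their transcription is known to be set together by Rap1, Fhl1, Ifh1 and Sfp1. Because a growing cell makes very many ribosomes, these mRNAs take a large part of all translation.

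Ribosome footprints were sequenced from 15 strains made in BY4741, a MATa laboratory strain, grown at 30 °C and 150 rpm of shaking. Each strain carried 1 GFP-tagged subunit of a complex, and each gave a total translatome (all ribosomes, pelleted through sucrose) and an IP translatome (ribosomes that came down with an antibody to GFP). Strains with FAS1-GFP, FAS2-GFP, GUS1-GFP, MES1-GFP, ARC1-GFP, PFK1-GFP, PFK2-GFP, SUI2-GFP, SUI3-GFP or GCD11-GFP grew in the rich medium YPD, which gave 17 totals from 10 strains. TRP2-GFP and TRP3-GFP grew in SD-trp, synthetic medium without tryptophan (3 totals), and CPA1-GFP in SD-arg, without arginine (1 total). FAS1dMPT-GFP lacks a segment of 1165 bases of its tagged FAS1, coding for part of the MPT domain and ending with base 6153, and FAS1-GFP FAS2dMPT lacks bases 1 to 282 of FAS2. Both deletion strains grew in medium with added fatty acids, 2 totals each, so that medium and deletion cannot be told apart in any of the 4. The 10 strains with 2 pairs of libraries are called replicated here. Whether replicates were grown as separate cultures is not in the labels, and the p-values rest on the spread between libraries, which may be technical.

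The 50 libraries had sizes of 0.54 to 55.9 M reads, estimated as the inverse of the commonest low value, taken as 1 read. These sizes are uncertain. In SUI3-GFP total 1, the largest, 16.3% of values above 0 lay near a whole multiple of that value. Totals had 73.0 to 96.5% of their reads over the listed features and IPs 37.8 to 94.3%. The tables came in 2 layouts of their coordinates, and all 4 fatty acid totals, 6 of the 17 YPD totals and 1 of the 3 SD-trp totals had the same layout. In 13 libraries (6 totals, 7 IPs) the summed MATalpha-specific genes exceeded the summed MATa-specific ones, which goes against the label BY4741. They were all libraries of FAS2-GFP and TRP2-GFP, all but total 2 of FAS1-GFP, and pair 1 of FAS1-GFP FAS2dMPT. A footprint value joins mRNA abundance and its translation, which cannot be told apart here, and it is relative to all other footprints in the library.

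In YPD totals the ribosomal protein genes took 20.2% ± 1.93 (SD, n = 17) of all nuclear footprints, from 16.4% in GUS1-GFP total 1 to 22.6% in PFK2-GFP total 1. The SD-trp totals lay within that range, with 21.8% and 21.5% in the TRP2-GFP libraries and 18.1% in TRP3-GFP, and the SD-arg total of CPA1-GFP held 18.5%. The 4 fatty acid totals held 15.8%, 15.0%, 15.3% and 14.1%, and each was below every YPD total. Their mean of 15.1% ± 0.71 (SD, n = 4) was lower than the YPD mean by 0.42 on the log2 scale. The 19 genes with no second copy gave a log2 difference of -0.45.

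**Figure D1:**
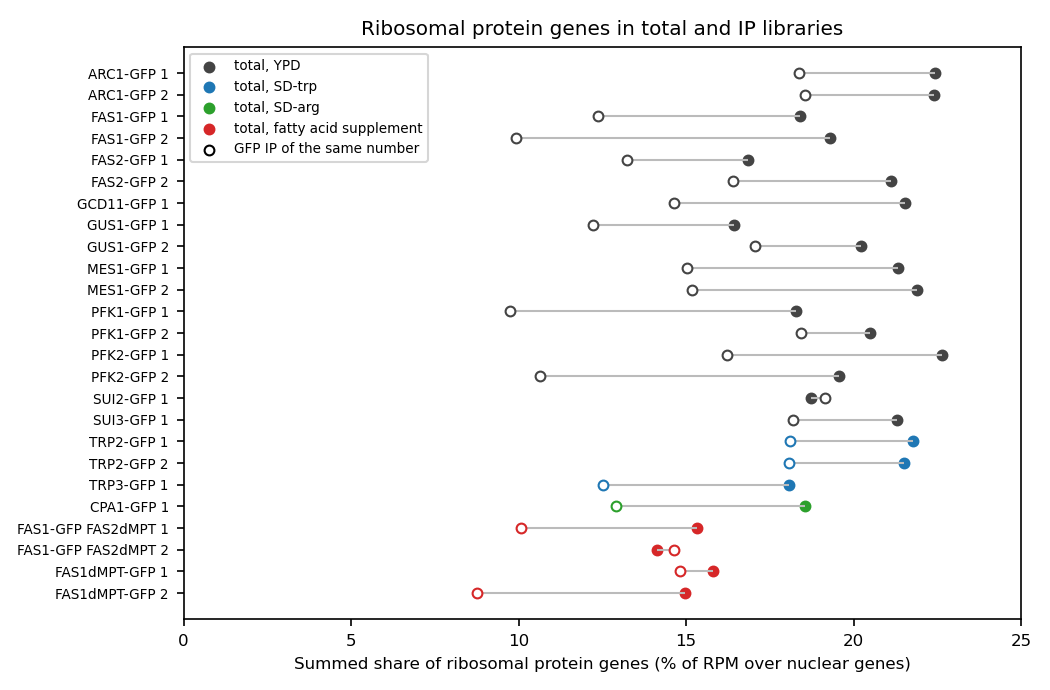
Summed share of the 137 ribosomal protein genes, in percent of RPM over nuclear genes, for each total library (filled) and the IP library of the same strain and number (open). Colours mark the medium. The 4 fatty acid totals lie between 14.1% and 15.8%, below the 16.4 to 22.6% of the YPD totals, and 23 of 25 IPs lie to the left of their total.

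Levels differed widely between genes when set per kilobase of genomic span, which includes introns and so understates genes that have one. Over the 17 YPD totals the highest levels belonged to RPL41A and RPL41B, which encode the shortest ribosomal protein, with means of 10375 and 9713 RPM per kilobase, with RPS31 (6263) and RPS20 (5707) also among the 5 highest. RPS31 encodes a small subunit protein fused to ubiquitin, and RPS20 encodes a protein of the small subunit head. At the other end stood RPL22B with 134.9, RPS22B with 255.0, RPS9A with 303.3, RPL18B with 555.5 and RPL31B with 574.6 RPM per kilobase. Each of these 5 is the weaker copy of a pair. The RPL41A level ran from 2677 to 19252 RPM per kilobase across YPD totals, so that its first place does not hold in every library, while RPS31 ran only from 4535 to 7890.

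The members also differed in how much they varied among YPD totals. On log2(scaled RPM + 1) the SD over 17 libraries was 0.33 for the median member, close to the 0.32 of the median feature above the filter, and ran from 0.16 for RPS1A to 0.81 for RPL39. In 17 members the SD exceeded 0.5, a limit set after the values were seen, and all 17 were lowest in the library GUS1-GFP total 1, as were 78 of all 137 members. A single low library raises the SD of the genes it is low in. The 17 include genes for very short proteins, such as RPL39, RPL41A, RPL41B, RPL29, RPS30A and RPS29B. RPL39, a protein of the wall of the exit tunnel, stood at 148.1 scaled RPM in GUS1-GFP total 1 and at 1453 in GUS1-GFP total 2, with a YPD median of 1343. RPL29 stood at 221.5 and 1571 in the same libraries. GUS1-GFP total 1 had 75.7% of its reads over features and GUS1-GFP total 2 had 93.5%, and the part of that in these values was not tested.

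RPL1A and RPL1B, the copies coding for the L1 stalk protein, are among these 17. RPL1A stood at 4746 and 4520 scaled RPM in the ARC1-GFP totals and at 2885 and 2898 in the MES1-GFP totals. In the TRP2-GFP totals, grown in SD-trp, it reached 5675 and 5777. The FAS1-GFP totals gave 1652 and 1616, the GUS1-GFP totals 1316 and 1366, and TRP3-GFP, in the same medium as TRP2-GFP, 1510. Replicates of these strains lay close together and strains grown in the same medium lay far apart, but the PFK1-GFP totals (1401 and 1820) and the PFK2-GFP totals (2279 and 1592) differed more. RPL1B ran from 1342 to 4823 in YPD, with GUS1-GFP total 1 and ARC1-GFP total 1 at the ends of both genes. These genes were picked after their values were seen, and no test of the strains was made.

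The comparison of fatty acid totals with YPD totals asks how footprints on these genes stood in the deletion strains grown with added fatty acids. Of 137 members 116 fell and 0 rose at an adjusted p below 0.05 (limma over 5009 features, Benjamini-Hochberg adjustment, no minimum fold). Over all features 32.0% were called, 17.9% as lower and 14.1% as higher. The median member was at -0.72 on the log2 scale, against -0.01 for all features tested, and 135 of 137 members were below 0. Large and small subunit genes moved alike in number and size, with 69 of 81 and 47 of 56 lower and medians of -0.73 and -0.71. Genes with no second copy had a median of -0.73 (16 of 19 lower) and genes with one -0.72 (100 of 118). The fit took libraries of the same strain as independent. With 1 value per strain, 95 members were lower and 0 higher, at a median of -0.73. The share of all features called in that setting is not given here.

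**Figure D2:**
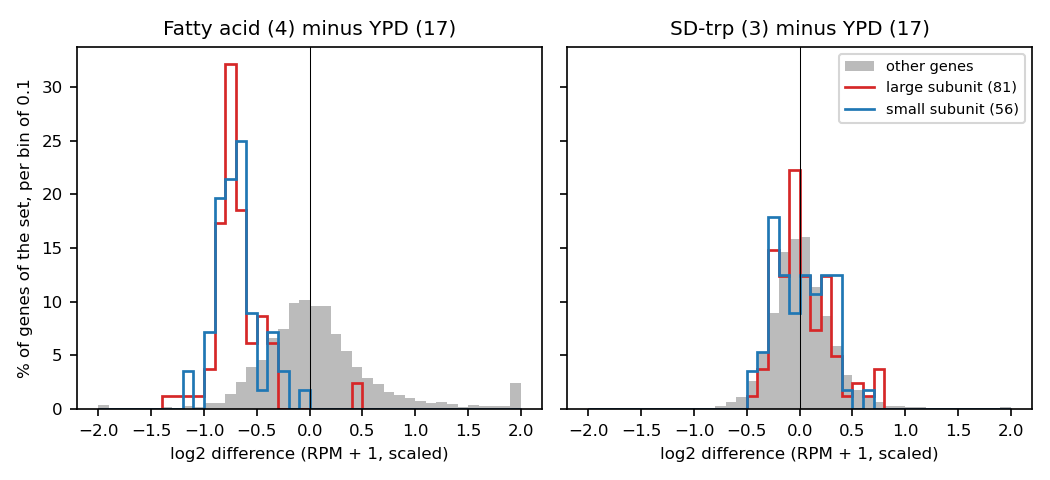
Distribution of log2 differences between totals of 2 media, on scaled RPM + 1, for the other genes (grey), the 81 large and the 56 small subunit genes. Values beyond 2 are drawn in the outer bins. In the left panel the ribosomal protein genes centre on -0.72, and in the right panel on -0.01.

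The lowest were RPL9A, RPL1A, RPS22A, RPL1B and RPS27A. RPL9A (chromosome VII, 227754 to 228329), which codes for a large subunit protein, had 1143 and 1013 scaled RPM in totals of FAS1dMPT-GFP and 1099 and 826.2 in the FAS1-GFP FAS2dMPT totals. In YPD it ran from 1582 through a median of 2769 to 3644, so the groups did not overlap, and the log2 difference was -1.39 ± 0.19 (SE, adjusted p = 5.37e-06 in limma). RPS22A (chromosome X, 74910 to 75302), a small subunit body protein, gave 980.3, 873.8, 904.9 and 741.3 against 1262 to 2754 with a median of 1929 in YPD. It fell by 1.19 (SE 0.18, adjusted p = 2.24e-05 in limma), again with no overlap.

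RPL1A (chromosome XVI, 135790 to 136443) held 998.9, 918.4, 1003 and 745.2 scaled RPM in the fatty acid totals, below the lowest YPD value of 1316. Its log2 difference was -1.22 ± 0.31 (SE, adjusted p = 0.00408 in limma), and RPL1B gave -1.16 (adjusted p = 0.00419), with the wide spread among YPD strains described above. RPS27A, a zinc-binding small subunit protein, held 210.8, 207.5, 274.9 and 172.5, but GUS1-GFP total 1 at 153.9 was lower still, so the groups overlapped around a difference of -1.15 (SE 0.26, adjusted p = 0.00142).

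Of those called, the smallest differences belonged to RPL12B (-0.46), RPL26A (-0.47), RPS23B (-0.48), RPL17A (-0.48) and RPL43B (-0.49), with adjusted p-values from 0.00805 to 0.0302 in limma. RPL12B codes for a protein at the base of the P stalk, and RPL17A and RPL26A for proteins around the exit of the tunnel. Their fatty acid values overlapped the YPD range: RPL12B held 1479, 1295, 1512 and 1051 scaled RPM against 1085 to 2518.

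For the P stalk, the flexible arm that recruits translation GTPases, 4 of 5 genes fell. RPP0, the anchor of the stalk, held 2377, 2260, 3627 and 2250 scaled RPM against 3089 to 5419 in YPD with a median of 4447. It fell by 0.77 (SE 0.14, adjusted p = 0.000167 in limma), and FAS1-GFP FAS2dMPT total 1 alone reached into the YPD range. RPP1A gave -0.75, RPP2A -0.56 and RPP2B -0.71, whereas RPP1B, at -0.33 ± 0.18 (SE), had an adjusted p of 0.166. The 3 genes that code for a ubiquitin fusion all fell: RPS31 gave -0.95 (adjusted p = 0.000131), RPL40B -0.83 and RPL40A -0.61. RPS31 held 1564, 1548, 2224 and 1413 scaled RPM against 2016 to 4315 in YPD, with FAS1-GFP FAS2dMPT total 1 inside that range. RPL22A and RPL22B, copies of a protein that is not essential in yeast, gave -0.72 and -0.53, with adjusted p-values of 0.0362 and 0.0464.

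The 21 members that were not called included 10 of the 17 that varied most among YPD totals. RPL41A and RPL41B were the 2 members above 0. RPL41A held 1528 and 1333 scaled RPM in totals of FAS1dMPT-GFP and 789.3 and 958.9 in the FAS1-GFP FAS2dMPT totals, against at most 1688 and a median of 941.7 in YPD, and its difference of 0.43 ± 0.36 (SE) had an adjusted p of 0.404 in limma. Without FAS1dMPT-GFP total 1 that difference was 0.27 (adjusted p = 0.687). RPL36A (-0.83) and RPL29 (-0.72) had differences near the median with large errors (SE 0.39 and 0.38). Without GUS1-GFP total 1 RPL36A was at -0.97 and passed (adjusted p = 0.0174 in limma). RPS22B (-0.10, adjusted p = 0.729) and RPS9A (-0.21, adjusted p = 0.372) had small differences and SEs of 0.19 and 0.17. Both are the weaker copy of a pair whose stronger copy fell.

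**Figure D3:**
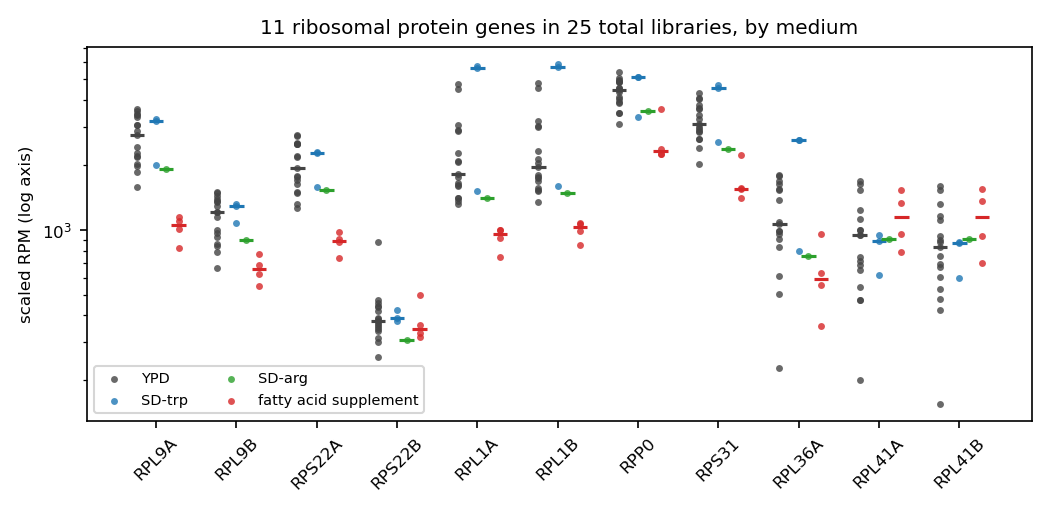
Scaled RPM (log axis) of 11 ribosomal protein genes in the 25 total libraries, coloured by medium, with a bar at the median of each medium. RPL9A, RPS22A, RPL1A and RPL1B in fatty acid totals lie below all YPD totals, while RPS22B, RPL41A and RPL41B overlap them.

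In 38 members, 20 large and 18 small subunit genes, all 4 fatty acid totals lay below all 17 YPD totals, and 0 members lay above. Over 5041 features 5.08% lay below and 5.79% above. The medians over the members, relative to the YPD mean, were -0.63 and -0.72 in the FAS1dMPT-GFP totals and -0.49 and -0.90 in the FAS1-GFP FAS2dMPT totals. Among YPD totals these medians ran from -0.58 in GUS1-GFP total 1 to 0.38 in PFK2-GFP total 1, with -0.10, -0.26, -0.43 and -0.06 in the totals of FAS1-GFP and FAS2-GFP. Against only those last 4 totals, 78 members were lower and 0 higher with a median of -0.51, and within the low-first table layout 130 were lower. Without GUS1-GFP total 1 the count was 127, and without FAS1-GFP FAS2dMPT total 2 it was 94. With no scaling beyond RPM the median of the other genes moved to 0.32 and that of the members to -0.40, with 87 members lower. The shares of all features called in these refits are not given here, so their counts cannot be set against them.

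Features other than ribosomal protein genes with a mean above 500 RPM, the range of 124 of the 137 members, had a median of -0.41 in this comparison. The part of level in the members' difference was not tested.

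Genes that act around ribosomal proteins were counted in lists chosen by their roles, with earlier results of these data known. Of the 11 chaperones and escorts that hold single ribosomal proteins or help build them in, 7 were lower in fatty acid totals and 0 higher, where 17.9% of all features were lower and 14.1% higher. The 7 were RRB1 (for Rpl3), ACL4 (for Rpl4), SYO1 (for Rpl5 and Rpl11), BCP1 (for Rpl23), TSR2 (for Rps26), FAP7 (for Rps14) and PUF6, with log2 differences from -0.68 for RRB1 to -0.51 for TSR2. SQT1, the chaperone of Rpl10, gave -0.34 with an adjusted p of 0.0503. Of 9 regulators tested of 10, RAP1 (-0.40, adjusted p = 0.000454) and REB1 (-0.37, adjusted p = 0.0026) were lower, a share near that of all features, while FHL1, IFH1 and SFP1 gave -0.16, 0.05 and 0.11 with adjusted p-values of 0.316 to 0.858. CRF1 fell below the filter with a YPD median of 0.88 scaled RPM. Both ribosome-bound proteins were lower: ASC1, the scaffold on the head of the small subunit, held 2529, 2368, 3981 and 1992 scaled RPM against 3785 to 9053 (-1.13 ± 0.23 SE, adjusted p = 0.000537), and STM1, which clamps idle ribosomes, gave -0.65.

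In SD-trp, 0 of 137 members and 0.0% of all 5009 features passed an adjusted p of 0.05 in limma. At an unadjusted p below 0.05 there were 10 members and 395 features, and with a weight per library 37 members passed, 21 higher and 16 lower. The share of all features called in the weighted fit is not given here. In the fit without weights the median member was at -0.01. Here the totals of the 2 strains differed, with medians over the members of 0.21 and 0.13 in TRP2-GFP and -0.31 in TRP3-GFP relative to the YPD mean. Without the totals high in MATalpha-specific genes, which leaves TRP3-GFP as the lone SD-trp library, the median was -0.35. The largest differences were those of RPL1A (0.79 ± 0.35 SE, adjusted p = 0.613), RPL1B (0.76) and RPL36A (0.74). Leaving out 1 library moved all 3 by over 1.5 times. Without TRP3-GFP RPL1A was at 1.42 and RPL1B at 1.37 (adjusted p = 0.0684 for both in limma), and without 1 of the TRP2-GFP totals the 3 genes were at 0.45 to 0.49. With TRP3-GFP as the lone SD-trp library they were at -0.54, -0.54 and -0.44, the opposite direction. Of the lists above, 0 regulators, 0 chaperones and 0 ribosome-bound genes passed. The SD-arg total of CPA1-GFP, with no replicate, had a member median of -0.22.

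The balance of the subunits, as the log2 ratio of summed RPM per kilobase of large over small subunit genes, was 0.66 ± 0.09 (SD, n = 17) in YPD totals, with GUS1-GFP total 1 lowest at 0.43 and GCD11-GFP total 1 highest at 0.81. It was 0.70 ± 0.08 (SD, n = 3) in SD-trp and 0.84 ± 0.07 (SD, n = 4) in fatty acid totals. Without RPL41A and RPL41B the ratios were 0.49 ± 0.04 in YPD and 0.49 ± 0.05 in fatty acid totals, a difference of -0.0051. On summed RPM without length the difference was 0.0096.

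In IP translatomes the ribosomal protein genes were lower than in totals. The comparison asks which mRNAs are held by ribosomes that come down with a tagged subunit, and none of the tagged proteins is a ribosomal protein. Over the 8 replicated strains with full-length subunits, all 137 members were lower at an adjusted p below 0.05 in limma, where 62.0% of 5137 features were called, 31.8% as lower and 30.2% as higher. The median was -0.70, against -0.02 for all features, and members ran from -1.18 to -0.32. Large and small subunit genes had medians of -0.71 and -0.69. Past an absolute log2 difference of 1 there were 2 members, RPL36A and RPL36B. With no scaling beyond RPM, 130 members were lower with a median of -0.46, where the other genes moved to 0.24. The share of all features called without that scaling is not given here.

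RPL36A (chromosome XIII, 651145 to 651910), a large subunit protein, had 226.7 to 2606 scaled RPM in the 16 totals with a median of 1028 and 134.0 to 917.6 in the 16 IPs with a median of 591.8. It was lower in 16 of 16 pairs, with a log2 difference of -1.18 ± 0.24 (SE, adjusted p = 0.00022 in limma). RPL36B gave -1.05, RPL22A -0.99, RPS14A -0.98 and RPL29 -0.96. RPS14A, a protein of the small subunit platform, was at a median of 2095 scaled RPM in totals and 1197 in IPs, also lower in 16 of 16 pairs.

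The members nearest to 0 were RPS12, RPS22B, RPS0A, RPS26B and RPS1A, all of the small subunit. RPS12, a protein of the beak of the small subunit, had medians of 2124 scaled RPM in totals and 1794 in IPs. It was lower in 14 of 16 pairs, with a log2 difference of -0.32 ± 0.12 (SE, adjusted p = 0.0212 in limma). RPS22B gave -0.35 (13 of 16 pairs), RPS0A -0.44 (16 of 16) and RPS1A -0.46 (16 of 16). RPP0 gave -0.64, RPP1A -0.85, RPP1B -0.62, RPP2A -0.72 and RPP2B -0.59, and RPL40A, RPL40B and RPS31 gave -0.81, -0.78 and -0.63. The ranges of totals and IPs overlapped for each member named here.

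**Figure D4:**
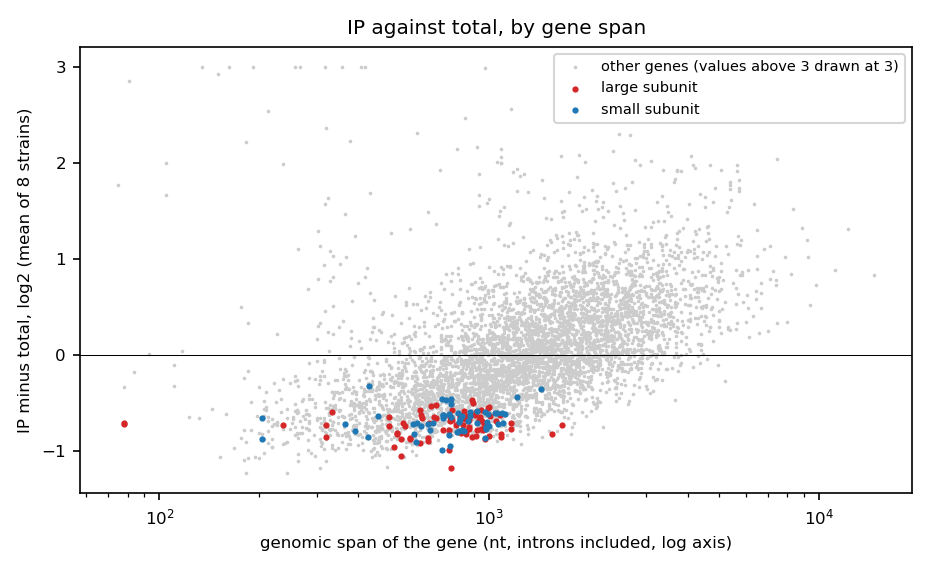
Mean IP minus total log2 difference over 8 strains against genomic span (log axis, introns included) for every feature tested, with large subunit genes in red and small subunit genes in blue. Ribosomal protein genes lie between -1.18 and -0.32 at every span, while the other genes rise from a median of -0.62 at up to 300 nt to 0.61 above 3000 nt.

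Gene length moved with this difference over the rest of the genome. Other features of up to 300 nt had a median of -0.62, those above 300 and up to 600 nt -0.51, above 600 and up to 1000 nt -0.28, above 1000 and up to 1500 nt -0.02, and above 1500 and up to 3000 nt 0.24. In the same classes the members had medians of -0.72, -0.80, -0.68, -0.64 and -0.77, from 5, 22, 91, 17 and 2 genes. Spans with introns exceed the coding length, so a member can sit in a longer class than its protein would put it. Other features above 500 RPM had a median of -0.33. The parts of length and level in the members' difference were not tested.

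Across the 25 pairs of a total and the IP of the same number, the median member was lower in the IP in 23, and in these 23 at least 128 of 137 members were lower. The pair medians ran from -1.10 in PFK2-GFP pair 2 to 0.28 in FAS1-GFP FAS2dMPT pair 2. In that last pair 136 members were higher in the IP, in which 94.3% of reads lay over features, against 88.5% in its total. FAS2 was at -3.26 in IP minus total in that pair and at 0.09 to 1.77 in the other 3 fatty acid pairs, and the part of this in the result was not tested. SUI2-GFP, with 1 pair, had a median of 0.03, with 64 members lower and 73 higher. Unlike the other pairs, its total and IP had different table layouts. Their estimated sizes were 1.77 and 14.0 M reads, and the part of either in this value was not tested. Replicates of a strain could differ: PFK1-GFP gave -1.09 and -0.40, FAS1dMPT-GFP -0.14 and -0.92, and GUS1-GFP -0.67 and -0.30. In those strains the IP with the smaller difference had 89.1%, 91.5% and 87.0% of its reads over features and the other IP 46.9%, 81.2% and 44.1%. Of the 10 replicated strains, 6 had the higher pair median with the larger share over features in the IP and 4 had the lower. The 4 were PFK2-GFP (-1.10 with 86.0%, -0.86 with 81.5%), FAS1-GFP (-0.66 with 57.7%, -0.51 with 37.8%), FAS2-GFP (-0.76 with 57.1%, -0.70 with 39.1%) and ARC1-GFP (-0.64 with 59.4%, -0.58 with 57.8%). The part of this share in the result was not tested. The MES1-GFP pairs gave -0.78 and -0.82 and the TRP2-GFP pairs -0.59 and -0.64.

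Strain by strain, with a spread pooled over all libraries, 27 members were lower in PFK2-GFP (5.06% of features called lower), 12 in TRP2-GFP (3.27%) and 4 in FAS2-GFP (3.95%). The TRP2-GFP totals and IPs also differed in mating-type genes, as given above, and the part of this was not tested. In the other 7 strains 0 members passed in limma, with 0 to 76 at an unadjusted p below 0.05, and at most 0.0195% of features were called lower. With the replicate number as a block, which pairs each total with the IP of its number, 127 members were lower in PFK2-GFP (16.7% of features), 92 in MES1-GFP (9.64%), 81 in FAS2-GFP (17.9%), 49 in TRP2-GFP (11.5%), 38 in ARC1-GFP (8.18%) and 22 in FAS1-GFP (8.88%), and 0 in the other 4 strains. Without the block, the 4 members in FAS2-GFP were RPL23B, RPL9A, RPL9B and RPS10B. Strain medians ran from -0.99 in PFK2-GFP to -0.34 in FAS1-GFP FAS2dMPT. A test of whether the difference varied among the 8 full-length strains called 0 members and 8 of 5000 other features (0.156% of all tested), and at an unadjusted p below 0.05 it held 0 members and 547 others.

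Genes of a tagged complex can take reads of their own in an IP, but the tagged gene was not higher in every IP. Its IP minus total log2 difference ran from -0.68 in GUS1-GFP pair 1 to 1.76 in FAS2-GFP pair 2. It was below 0 in the MES1-GFP pairs (-0.26 and -0.31) and the ARC1-GFP pairs (-0.30 and -0.43). In the FAS1-GFP pairs it was 0.99 and 0.79, and FAS2 was at 5.91 and 6.48. Without 14 genes of the tagged complexes, the ribosomal protein share was 15.1% in place of 12.4% in FAS1-GFP IP 1 and 14.8% in place of 9.93% in FAS1-GFP IP 2, against 18.7% and 19.7% in the totals, and 23 of 25 pairs still had the lower share in the IP. The log2 ratio of large over small subunit genes was lower in the IP in 20 of 25 pairs, by 0.05 on average (-0.05 ± 0.07 SD over 25 pairs), from -0.23 in GCD11-GFP to 0.10 in SUI2-GFP. Without RPL41A and RPL41B the mean was -0.053, and these 2 pairs were at -0.13 and -0.0030.

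In the same comparison over 8 strains, 9 of the 11 chaperones and escorts were lower and 0 higher, where 31.8% of all features were lower and 30.2% higher. They were led by YAR1, the chaperone of Rps3, at -0.80 (adjusted p = 1.06e-05). RRB1 and SYO1 were not called, at -0.12 and 0.02. Of the 9 regulators tested, FHL1, IFH1, SFP1, TBF1 and SCH9 were higher, from 0.22 to 0.51, and RAP1, HMO1 and REB1 lower, from -0.49 to -0.40. ASC1 gave -0.49 and STM1 -0.81. By genomic span, FHL1, SFP1, TBF1, SCH9, RAP1 and REB1 lie above 1500 and up to 3000 nt, where other features had a median of 0.24. IFH1 lies above 3000 nt, where that median was 0.61, and YAR1 above 600 and up to 1000 nt, where it was -0.28. The part of length in the differences of these lists was not tested.

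Paralog pairs were compared by the share of copy A in the footprints of the pair. In YPD totals copy A had over 50% in 35 pairs and copy B in 24, and the larger copy had a median of 59.1%. The most unequal pair was RPL22, in which RPL22A held 94.9% ± 1.25 (SD, n = 17, range 92.1 to 96.4%). RPL15A, a protein of the large subunit core, held 89.0% ± 1.82 of its pair, RPS22A 82.8% ± 5.82 and RPS14A 79.5% ± 2.19, while RPS9A, a small subunit body protein, held 13.9% ± 1.15 against RPS9B. Among the most equal pairs were RPS4 (50.1%), RPS18 (50.1%), RPS6 (49.7%) and RPL20 (49.6%). Of these, RPS4 and RPS6 ranged over few points (48.3 to 52.2% and 48.5 to 51.1%), and RPS18 over 42.4 to 58.8%. How footprints that match both copies were counted is not given in the sources used here, so a share near 50% with a narrow range is uncertain, as is the level of each such copy.

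**Figure D5:**
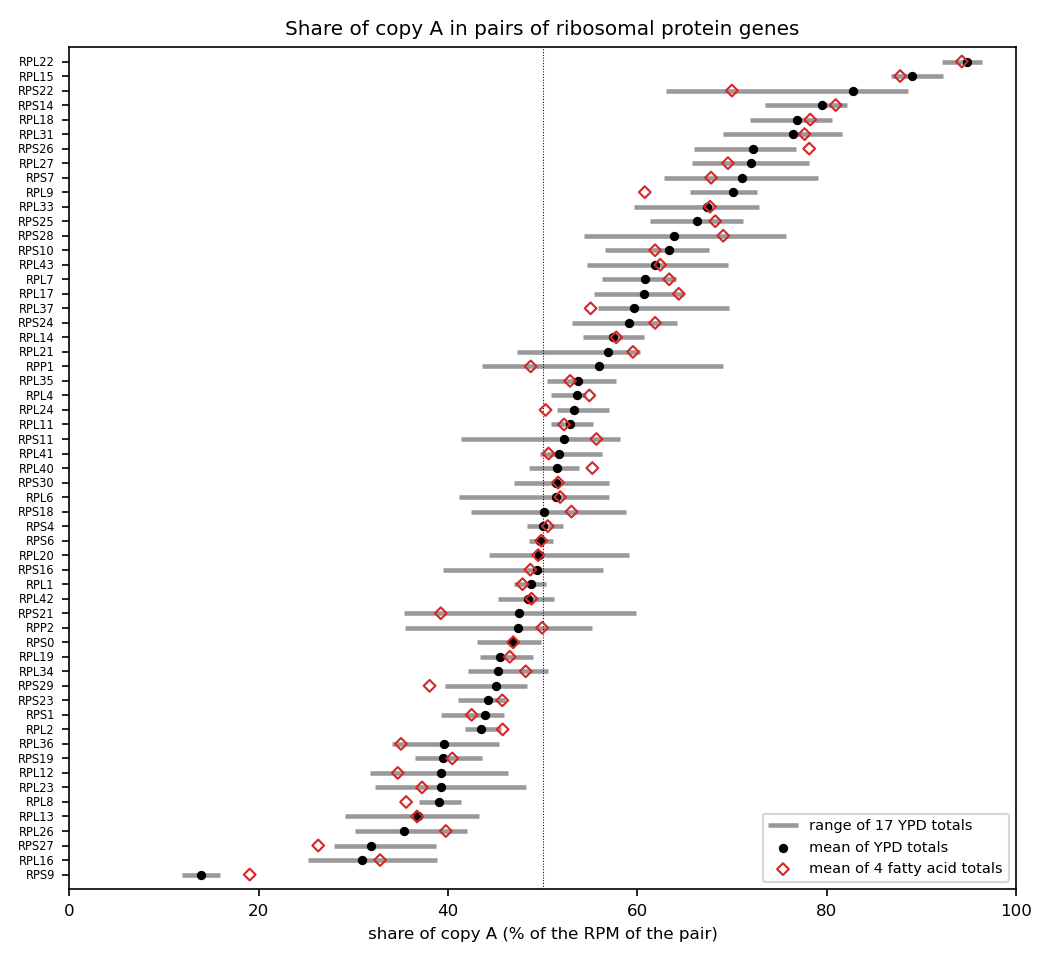
Share of copy A in the RPM of its pair, in percent, for the pairs reported here. Grey bars span the 17 YPD totals, black points are their mean and red diamonds the mean of the 4 fatty acid totals. RPS9 and RPL22 lie at the ends, and the diamonds of RPL9 and RPS9 are among those that lie outside the grey bars.

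The share moved little between total and IP, by a median of 0.938 points between the YPD means and by 5.39 points at most, in RPS22. The YPD means of the 2 table layouts, which hold different libraries, differed by a median of 0.809 points and at most 4.01. In fatty acid totals, 5 pairs had all 4 values outside the YPD range, and they were picked for that after the values were seen. RPL9A held 64.7%, 59.7%, 58.6% and 60.1% of its pair against 65.5 to 72.7% in YPD, RPS29A 37.0 to 39.5% against 39.6 to 48.4%, and RPS9A 19.1% on average against 11.9 to 15.9%. RPL40A (54.3 to 56.1% against 48.6 to 53.8%) and RPL4A (54.7 to 55.3% against 50.9 to 54.6%) were the others. RPS22A moved most on average, by -12.8 points from 82.8%, but its YPD range reached down to 63.0% in PFK1-GFP total 1, where RPS22B stood at 874.8 scaled RPM beside a YPD median of 378.4.

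In SD-trp, pairs among the 5 that moved most from the YPD mean were RPS21 (by 9.35 points), RPL23 (-9.22), RPP1 (9.14) and RPL6 (-7.65). RPL23 codes for a protein of the face of the large subunit that meets the small one, and RPP1 for one of the P stalk. The TRP2-GFP libraries carried these values: RPL23A held 25.2% and 26.4% of its pair in the TRP2-GFP totals and 38.5% in TRP3-GFP, against 32.2 to 48.3% in YPD. RPP1A held 70.7% and 72.3% in TRP2-GFP and 52.0% in TRP3-GFP, against 43.6 to 69.0%. In SD-trp 0 members lay wholly below or above the YPD totals, where 0.0602% of 4986 features lay below and 0.0802% above. RPS14 was the 1 pair of 59 with all 3 SD-trp values outside the YPD range, at 82.2%, 82.8% and 82.8% against at most 82.1%.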

How the data were processed

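Total and GFP-IP ribosome footprints were deposited as RPM (reads per feature, relative to library size), judged from the values of 50 tables without headers. The submitters' processing notes name cutadapt 1.8.3. Nothing used here states the aligner, the build, the strand setting or how reads with several matches were counted. The other 16 of 66 samples have no table of all genes in the files used here. In each library 13.4 to 75.6% of values above 0 lay within 0.01 of a whole multiple of the commonest low value, so no count model was fitted.

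RPM was rescaled to nuclear features, and scaled RPM is that value divided by a factor, the trimmed mean of its log ratios (0.3 trimmed on ratios and 0.05 on means). Features averaging 5 RPM or more were tested on log2(scaled RPM + 1) with limma 3.58.1 in R 4.3.3 (trend, Benjamini-Hochberg adjustment over all features, threshold 0.05), a scale that understates changes of low genes. Totals were fitted with a mean per medium, and the 40 libraries of the replicated strains with a mean per strain and fraction. The code was tested on simulated data. Levels per kilobase and shares use RPM without this scaling. Paralog shares had been planned per kilobase, and RPM was used because spans hold introns.

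The text names the stalk, ubiquitin fusion and RPL22 genes, the 5 highest and 5 lowest called members of each comparison, the 5 highest and lowest levels, and the 5 most unequal, most equal and (in SD-trp) most moved pairs. Some genes that this rule names are not reported here. Other genes named were picked after their values were seen. Members and lists were chosen with earlier results of these data known. Coordinates are those of the deposited tables, and 13 members differ there from RefSeq R64, the source of symbols. Alternatives were other scalings, a pseudocount of 5, no filter, a minimum fold, library weights, a replicate block, strain means and each library left out. Added after the data were seen were the table layouts, the mating-type pattern, the FAS1-GFP and FAS2-GFP totals alone, FAS1-GFP FAS2dMPT pair 2, RPL41A and RPL41B, genes with no second copy and genes of the tagged complexes.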

Additional observations from a re-analysis of the deposited data

Results flagged for a closer look

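Within the group of 4 fatty acid totals, 5 of the 120 gene and group sets looked at had 1 library far from the other 3, by Dixon's ratio of gap to range, where chance gives about 1 in 20. In FAS1-GFP FAS2dMPT total 1, RPL22A stood at 1761 scaled RPM beside 991.4 to 1087 in the others, RPL29 at 1322 beside 640.2 to 715.8, RPL6B at 1083 beside 700.7 to 726.9 and RPP0 at 3627 beside 2250 to 2377. That library is also the 1 fatty acid total in which MATalpha-specific genes exceed MATa-specific ones, and the part of this was not tested. RPL20B was low in FAS1-GFP FAS2dMPT total 2, at 755.6 beside 942.1 to 967.4. For RPL15B the IP exceeded the total in each TRP2-GFP pair, by 0.050 on average on the log2 scale (0.0077 and 0.093), while both pairs were lower in 8 other strains. The TRP2-GFP totals and IPs also differed in mating-type genes, and the part of that was not tested. The moderated F test in limma of a difference among the 8 full-length strains, TRP2-GFP included, gave this gene an adjusted p of 1.00 (unadjusted 0.792).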

How the results depend on the processing

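In fatty acid totals the count of 116 lower members was 87 to 135 under other scalings, weights, filter, pseudocount, strain means and the replicate block. The weighted fit had the 135 lower and also 2 higher. The count was 78 against FAS1-GFP and FAS2-GFP totals alone. With 1 library left out it was 94 (without FAS1-GFP FAS2dMPT total 2) to 127 (without GUS1-GFP total 1). With a minimum absolute log2 difference of 1 it was 6, and for the IP mean 2. The IP mean gave 130 to 137 lower members under the other alternatives and 135 to 137 with 1 library left out. In SD-trp the count was 0 except with library weights (37), whose estimation stopped short of convergence in 1 fit. By strain, library weights gave 2 in FAS1-GFP, 53 in FAS2-GFP, 135 in MES1-GFP, 117 in ARC1-GFP and 79 in TRP2-GFP. No further scaling gave 6 in FAS1-GFP, 1 in FAS2-GFP, 17 in PFK2-GFP and 6 in TRP2-GFP. The replicate block gave 22 in FAS1-GFP, 81 in FAS2-GFP, 92 in MES1-GFP, 38 in ARC1-GFP, 127 in PFK2-GFP and 49 in TRP2-GFP. It changed no count between media or in the IP mean. The deviations of totals and IPs of the same number correlated at 0.10 to 0.83 in 9 of 10 strains and at 0.002 in ARC1-GFP, and the labels do not say that a number marks 1 culture, so the numbers were not taken as pairs in the main results. A strain's libraries alone gave 0 in FAS2-GFP, 137 in MES1-GFP, 134 in ARC1-GFP, 13 in PFK2-GFP and 122 in TRP2-GFP. No filter gave 1 in FAS2-GFP and 14 in PFK2-GFP, a pseudocount of 5 gave 7 in FAS2-GFP, and leaving out FAS1-GFP FAS2dMPT pair 2 gave 8 in FAS2-GFP. With 1 library left out, the lone library being assumed to vary like the others, the counts were 0 to 6 in FAS2-GFP, 0 to 88 in PFK1-GFP (88 without IP 2), 0 to 44 in PFK2-GFP and 0 to 2 in TRP2-GFP. The causes were not tested. By strain, the share of all features called is given above for the main fit and the replicate block only. The other counts of members stand here without it. The large over small subunit difference of 0.18 in fatty acid totals was -0.052 by medians, 0.0096 by RPM without length and -0.0051 without RPL41A and RPL41B, and 0.16 to 0.20 with 1 library left out. For IP minus total it was -0.05 to -0.04 with 1 pair left out. The log2 share difference of fatty acid totals was -0.45 to -0.39 with 1 library left out. Members without a near-identical copy could not be defined without sequences. Replicates are few, and the part of depth in these results was not tested.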
